A study of Mus musculus with 23 samples.

Results

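The 37 fatty acid oxidation genes described here were taken by symbol from a table of read counts for 18876 mouse genes, and all 37 were present and passed the filter on low counts. Of these genes, 25 code for mitochondrial proteins, 7 for peroxisomal proteins, 2 for enzymes found in both compartments (Crat and Eci2) and 3 for nuclear regulators (Ppara, Ppard and Ppargc1b). RNA came from CD11b-positive cells, a fraction rich in microglia, which were isolated with magnetic beads from both hippocampi of female mice aged 15 to 18 months. Every mouse carried floxed Slc11a2 alleles (Slc11a2 fl/fl) and 1 copy of Cx3cr1-CreERT2, a recombinase that tamoxifen activates and that is made where Cx3cr1 is active, in microglia and other macrophages, on a mixed 129S;C57BL/6J background. KD mice were dosed orally with tamoxifen at 5 to 6 months, 4 mg daily over 5 days, while Controls were dosed with corn oil, so that tamoxifen and the knockdown of Slc11a2, an iron transporter gene, cannot be told apart. The 4 groups were Control WT (n = 6), Control APP/PS1 (n = 6), KD WT (n = 5) and KD APP/PS1 (n = 5), in which APP/PS1 mice carry human transgenes that produce amyloid plaques. A seventh Control APP/PS1 library, number 10, was left out of the fit, and its values are given for the members that the comparisons turn on.

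Fatty acids are burned in 2 compartments. In mitochondria, carnitine carries activated long-chain fatty acids across the inner membrane, and a repeated cycle of dehydrogenation, hydration, a second dehydrogenation and thiolysis then shortens them and hands electrons to the respiratory chain. Peroxisomes run a related cycle on very long and branched chains, in which an oxidase makes hydrogen peroxide in the first step, and pass shortened chains on to mitochondria. Microglia near amyloid plaques are known to change their lipid handling.

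Total counts ran from 31128643 to 54872491 per library. Slc11a2 was at 35.1 ± 5.13 CPM (normalised read counts scaled to the library total, SD) in Control WT, 43.2 ± 3.93 in Control APP/PS1, 34.2 ± 4.75 in KD WT and 56.5 ± 13.5 in KD APP/PS1. Between KD and Control it passed the threshold in neither genotype in the main fit (log2 fold change -0.036 in WT, adjusted p = 1.0, and 0.39 in APP/PS1, adjusted p = 0.205, edgeR). In APP/PS1 it was called higher in KD by DESeq2 (0.44, adjusted p = 0.0498) and by edgeR without KD APP/PS1 4 (0.50, adjusted p = 0.0209). A count over the whole gene also holds reads from exons that the knockdown leaves in place. The study reported, from exon coverage, that expression of the targeted exons was lost in the knockdown cells. The numbers in the library names fall into runs. Controls hold numbers 5 to 17, while KD libraries hold either 1 to 4 (KD WT 1, 2 and 3 and KD APP/PS1 4) or 18 to 23 (KD WT 19 and 22, KD APP/PS1 18, 20, 21 and 23). Whether a run is a batch is not stated, and run and knockdown cannot be told apart. Summed markers of microglia (8 of 9 in the table, 0 of them without counts in a group) ran from 35537 to 40777 CPM in Control WT, from 26722 to 30794 in Control APP/PS1, from 36418 to 40938 in KD WT and from 29755 to 33308 in KD APP/PS1. Of 9 other cell types, oligodendrocyte markers (7 of 7) reached 2777, 965, 3600 and 1258 CPM at most in these 4 groups. Choroid plexus markers (11 of 11, 4 of them at 0 throughout Control APP/PS1) reached 1979, 5.37, 802 and 493 CPM, with Ttr at up to 996 CPM and Enpp2 at up to 729 CPM in Control WT 12. Border-associated macrophage markers (6 of 6, each with counts in every group) ran from 185 to 365 CPM in Control WT and 80.1 to 171 in Control APP/PS1, and from 208 to 446 in KD WT and 108 to 154 in KD APP/PS1, without overlap between genotypes. Endothelial markers (5 of 5) ran from 145 to 308 CPM in Control WT and 93.5 to 127 in Control APP/PS1, and from 126 to 314 and 85.1 to 130 in the KD groups. Neutrophil and monocyte markers (5 of 5), from cells that CD11b beads also hold, ran from 72.7 to 267, 21.5 to 80.6, 74.9 to 422 and 41.2 to 133 CPM in the order Control WT, Control APP/PS1, KD WT and KD APP/PS1. In that order astrocyte markers (7 of 7) had medians of 536, 418, 155 and 106 CPM and lymphocyte markers (6 of 7) of 297, 358, 308 and 313 CPM, while markers of neurons (6 of 6) and ependyma (3 of 4) reached at most 9.61 and 4.56 CPM. The part of other cells in the results was not tested. In such bulk samples, fewer cells of a type and less RNA per cell cannot be told apart.

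Levels are given first as CPM divided by the transcript length in kilobases in Control WT, the scale on which single genes are compared with each other here. The highest was Acads, the short-chain acyl-CoA dehydrogenase, at 84.4 CPM per kilobase. Hadhb, the thiolase subunit of the trifunctional protein, followed at 68.4. The next were the peroxisomal genes Hsd17b4 (54.2), the bifunctional enzyme of the middle steps, Scp2 (52.1), a thiolase and sterol carrier, and Acaa1a (44.3), the peroxisomal thiolase. Cpt1a, whose product makes acylcarnitines at the mitochondrial outer membrane and is the controlled step of entry, stood 30th of 37 at 5.42. The peroxisomal Ehhadh, a second bifunctional enzyme, was at 3.66. The regulators Ppargc1b (0.17) and Ppara (0.02) closed the list. Ppara, the receptor best known for switching on these genes in liver, had 0 counts in 15 of 22 libraries and at most 18 counts, where a count of 0 allows up to 0.0547 to 0.0964 CPM depending on the library (3 counts, counting error only). Ppard, the related receptor, was at 27.8 ± 4.09 CPM in Control WT (SD, n = 6).

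In Control mice, the question was how the members differed between APP/PS1 and WT, within 1 run of library numbers. Echs1, which adds water to the double bond of short acyl chains in mitochondria, rose. Acads, the enzyme of the step before it for short chains, fell, and so did Acat1, the mitochondrial acetoacetyl-CoA thiolase of ketone body and isoleucine breakdown. In all, 1 of 37 members was higher beside 5.99% of the 18759 genes tested, and 2 were lower beside 4.48% (edgeR, adjusted p under 0.05). All 3 were mitochondrial. The median log2 fold change was 0.02 over the 25 mitochondrial members and -0.20 over the 7 peroxisomal members, against -0.02 over all genes.

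Echs1 (ENSMUSG00000025465, chr7:139684839-139696570 on GRCm39, minus strand, 8 exons) had the largest change among members detected at 1 CPM or more. In Control WT its level was lowest at 75.8 CPM, with a median of 84.2 and a highest value of 94.9. In Control APP/PS1 it ran from 139 CPM over a median of 163 to 179. The groups did not overlap, and the lowest APP/PS1 library lay well above the highest WT library. The log2 fold change was 0.91 (SE 0.12, edgeR adjusted p = 8.70e-06). It stayed past the threshold with each library of the fit left out in turn (0.88 to 0.95), and library 10 was at 216 CPM, above the other APP/PS1 Controls.

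Acads (ENSMUSG00000029545, chr5:115248357-115257405, minus strand, 10 exons) ran from 150 to 171 CPM in Control WT, with a median of 157. In Control APP/PS1 it ran from 98.4 to 138 CPM, with a median of 120. The groups did not overlap, and the lowest values were those of APP/PS1 libraries 5 and 7. The log2 fold change was -0.43 (SE 0.11, edgeR adjusted p = 0.0103). It was called with each library left out in turn. Library 10, at 155 CPM, lay within the range of WT.

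Acat1 (ENSMUSG00000032047, chr9:53450461-53521731, minus strand, 12 exons) ran from 54.8 to 70.2 CPM in Control WT and from 45.1 to 49.7 CPM in Control APP/PS1, with medians of 58.4 and 47.9. There was no overlap among the libraries of the fit, but library 10, at 59.9 CPM, lay within the range of WT. The log2 fold change of -0.33 (SE 0.10) had an edgeR adjusted p of 0.0271. The call was lost when Control WT 9 or 12, Control APP/PS1 5, 11 or 16 or KD APP/PS1 18 was left out (adjusted p up to 0.0808). It was also lost with library 10 kept (-0.28, adjusted p = 0.0747), with a correction for length and GC content (-0.25, adjusted p = 0.0902) and without the WT libraries richest in choroid plexus markers, Control WT 12 and 15 and KD WT 19 and 22 (-0.31, adjusted p = 0.0631). Acat1 shares 12.5% of its exon bases with Npat, and whether counting used the strand is not given in the sources used here.

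**Figure D1:**
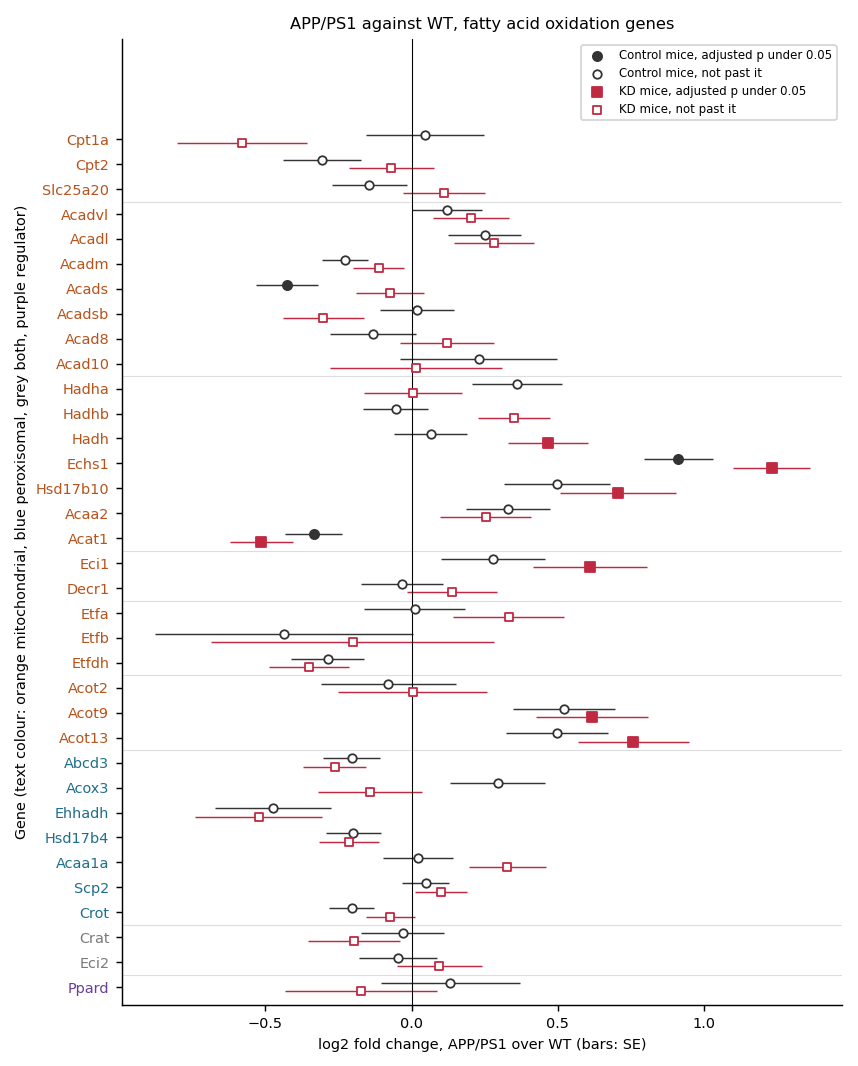
Log2 fold change of APP/PS1 over WT with its standard error for 35 members in Control mice (black circles) and KD mice (red squares), grouped by role, with filled symbols past an adjusted p of 0.05. Echs1 stood farthest right in both, and none of the 7 peroxisomal members (blue names) was filled. Ppara and Ppargc1b, at very low counts, are not drawn.

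Promoter matches are shown because Echs1 is among them and this gene had the only rise in Controls that passed the threshold. PPAR receptors, with RXR, are known to bind a direct repeat of AGGTCA with 1 base between the copies. In windows of 300 bases around gene starts from RefSeq (build GRCm38.p6; 250 before and 50 after the start), found for 30 of the 37 members, the exact repeat was in 0 members and in 0.0481% of 27025 genes on either strand. With at most 2 mismatches in the fixed bases it was in 3 members, Echs1, Etfa and Slc25a20, and in 4.40% of all genes. The ERR element TCAAGGTCA was in 0 of the 30 and in 0.466% of all genes, and its last letters are a copy of the repeat unit. The matches are given with their place on GRCm39, where each window has 1 exact match on the gene's own chromosome. They are Echs1 (chr7:139696405-139696417, minus strand), Etfa (chr9:55419592-55419604, plus strand, opposite to the gene) and Slc25a20 (chr9:108539341-108539353, plus strand). Capitals mark the repeat units.
Echs1: AGGTCAcGGGTCC
Etfa: AGGGCAaAGGTAA
Slc25a20: AGGTGAaAGGTCG
Gene starts differ between annotations. The Echs1 match ended 70 bases before the RefSeq start and 15 bases before the start of the canonical GENCODE transcript, while the longest gene span given above includes it. The Etfa match ended 64 bases before the RefSeq start but began at base 189 of the canonical GENCODE transcript, in an exon. The Slc25a20 match began at base 7 after the RefSeq start and at base 45 of the canonical transcript, also in an exon. Of the 3 genes, only Echs1 passed the threshold between APP/PS1 and WT.

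The remaining members did not pass the threshold between the Control groups. In the carnitine shuttle, Cpt1a was at 35.8 ± 6.36 CPM in Control WT and 36.9 ± 6.43 in Control APP/PS1 (SD, n = 6 each). Cpt2, which returns acyl groups to coenzyme A inside, was at 21.6 ± 3.11 and 17.5 ± 2.27, and the carrier Slc25a20 at 26.4 ± 3.63 and 23.8 ± 2.96. Among the acyl-CoA dehydrogenases, Acadm, for medium chains, was at 75.1 ± 5.74 and 64.1 ± 4.48 CPM, with a log2 fold change of -0.23 (edgeR adjusted p = 0.0729). DESeq2 called Acadm lower (-0.26, adjusted p = 0.00712). Acadvl, for very long chains, and Acadl, for long chains, had log2 fold changes of 0.12 and 0.25. The lowest adjusted p values short of the threshold belonged to Acot9 (0.0580) and Acot13 (0.0695), thioesterases that free fatty acids from coenzyme A, with log2 fold changes of 0.52 and 0.50. Library 10 was at 55.4 and 59.8 CPM for these, and with it kept they were called (0.65, adjusted p = 0.0236, and 0.67, adjusted p = 0.0272, edgeR). Hsd17b10, a short-chain hydroxyacyl-CoA dehydrogenase that is also a subunit of mitochondrial RNase P, had 0.50 (adjusted p = 0.0833), with library 10 at 102 CPM, and was called with that library kept (0.64, edgeR adjusted p = 0.0332). Acot13 shares 74.5% of its exon bases with BC005537 on the other strand, so its counts are uncertain. The flavoprotein genes that pass electrons on gave 0.01 for Etfa, -0.44 for Etfb and -0.29 for Etfdh, and Etfb shares 43.5% of its exon bases with Etfbl on the same strand. The low regulators gave no usable fold change.

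Of the peroxisomal members, 0 of 7 were called by edgeR between the Control groups, 4 had an unadjusted p under 0.05, and 1 (Crot, lower) was called by DESeq2 and by limma voom. Crot, which makes medium-chain carnitine esters for export, was at 106 ± 4.72 CPM in Control WT and 92.2 ± 5.35 in Control APP/PS1. Abcd3, a transporter that brings acyl-CoA into the peroxisome, was at 86.6 ± 7.72 and 75.2 ± 8.06, and Hsd17b4 at 205 ± 19.1 and 179 ± 17.8. Library 10 was at 87.6 CPM for Crot and 63.6 CPM for Abcd3. Acox3, an oxidase of the first step for branched chains, went the other way, at 119 ± 10.7 and 146 ± 26.9 CPM. Its log2 fold change was 0.29 (edgeR adjusted p = 0.282), and library 10 was at 86.3 CPM. Ehhadh was at 10.9 ± 2.999 and 7.88 ± 1.43 CPM (-0.47, adjusted p = 0.135). Scp2 (0.05) and Acaa1a (0.02) were near 0 on the log2 scale. The difference between mitochondrial and peroxisomal members as such was not tested.

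In KD mice, the same comparison of APP/PS1 with WT gave 6 of 37 members higher, beside 9.77% of all genes tested, and 1 lower, beside 6.41% (edgeR, adjusted p under 0.05). The 6 were Echs1, Acot13, Hsd17b10, Acot9, Eci1 and Hadh, and the 1 was Acat1. All 7 are mitochondrial, and 0 of 7 peroxisomal members were called (4 at an unadjusted p under 0.05; DESeq2 called Abcd3 lower, limma voom Acaa1a higher). The median log2 fold change was 0.12 over the mitochondrial and -0.14 over the peroxisomal members, against -0.07 over all genes.

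Echs1 was at 82.4, 82.8, 70.3, 95.2 and 96.9 CPM in KD WT 1, 2, 3, 19 and 22. It was at 146, 180, 204, 247 and 227 CPM in KD APP/PS1 4, 18, 20, 21 and 23. The groups did not overlap, and the lowest APP/PS1 value was that of library 4. The log2 fold change was 1.23 (SE 0.13, edgeR adjusted p = 7.27e-07), and 1.16 (adjusted p = 5.51e-05) within libraries 18 to 23 alone.

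Acat1 was at 58.6, 70.8, 64.1, 80.8 and 75.7 CPM in KD WT and at 49.1, 51.4, 53.8, 50.02 and 40.8 CPM in KD APP/PS1, in the same order of libraries. Every KD APP/PS1 library lay below every KD WT library. The log2 fold change was -0.51 (SE 0.11, edgeR adjusted p = 0.00203), a call that was lost with only the compared groups fitted. It was -0.67 (edgeR adjusted p = 0.00253) within libraries 18 to 23. Echs1 and Acat1 were the members called in this run, 1 higher beside 2.99% of all genes and 1 lower beside 2.09%.

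Hadh, the mitochondrial dehydrogenase of medium and short hydroxyacyl chains, was at 46.9, 46.6, 46.7, 68.1 and 70.8 CPM in KD WT. In KD APP/PS1 it was at 58.2, 68.0, 79.7, 90.6 and 89.1 CPM. The groups overlapped, and in both genotypes libraries 1 to 4 were the low ones. Its log2 fold change was 0.47 (SE 0.14, edgeR adjusted p = 0.0218) over the groups and 0.24 (adjusted p = 0.321) within libraries 18 to 23.

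Hsd17b10 was at 40.3, 39.5, 29.1, 46.9 and 73.1 CPM in KD WT and at 50.8, 65.5, 77.0, 92.3 and 87.2 CPM in KD APP/PS1. KD WT 22 lay among the APP/PS1 values. The log2 fold change was 0.70 (SE 0.20, adjusted p = 0.0172), and 0.42 (adjusted p = 0.289) within libraries 18 to 23 by edgeR. Eci1, which shifts double bonds so that unsaturated chains can enter the cycle, was at 22.7, 15.8, 16.7, 23.6 and 34.0 CPM in KD WT and at 23.5, 30.7, 38.4, 40.9 and 38.5 CPM in KD APP/PS1. The groups overlapped at libraries 4 and 22. Eci1 had a log2 fold change of 0.61 (SE 0.19, adjusted p = 0.0354), and 0.37 (adjusted p = 0.376) within libraries 18 to 23 by edgeR.

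Of the 3 thioesterases, Acot9 and Acot13 stood in the same way, while Acot2 had a log2 fold change of 0.003. Acot9 was at 22.1, 23.2, 16.6, 32.7 and 35.1 CPM in KD WT and at 26.4, 36.0, 45.9, 50.7 and 39.8 CPM in KD APP/PS1 (log2 fold change 0.62, SE 0.19, edgeR adjusted p = 0.0297). Acot13 was at 18.5, 21.1, 24.7, 28.8 and 36.0 CPM and at 28.3, 39.3, 51.1, 63.7 and 36.0 CPM (0.76, SE 0.19, edgeR adjusted p = 0.00815). In both, the high WT libraries 19 and 22 reached into the range of APP/PS1. Within libraries 18 to 23 the log2 fold changes were 0.35 (adjusted p = 0.353) and 0.55 (adjusted p = 0.135).

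**Figure D2:**
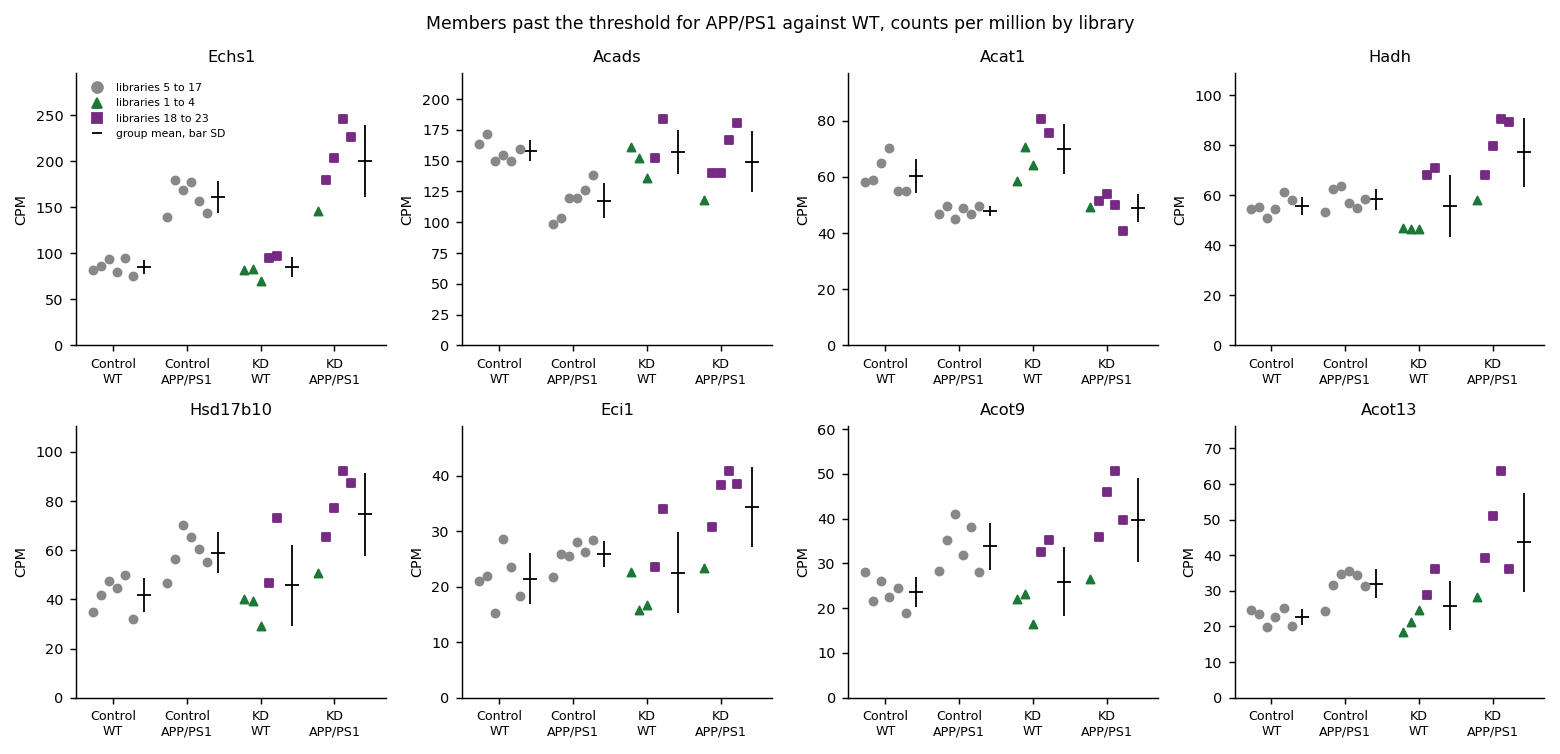
CPM in each of 22 libraries for the 8 members past the threshold between APP/PS1 and WT in Control or KD mice, with group mean and SD at the right of each group and symbols by run of library numbers. Echs1 and Acat1 separated APP/PS1 from WT within Control and within KD mice. Echs1, Acat1, Hadh, Hsd17b10, Eci1, Acot9 and Acot13 were higher in KD WT libraries 19 and 22 than in 1, 2 and 3.

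The Control and the KD comparison share no samples. Of the 37 members, 25 (67.6%) had the same sign in both, beside 67.8% of all genes tested, and 6 of 7 peroxisomal members did, 4 of them (Abcd3, Ehhadh, Hsd17b4 and Crot) negative. Across the 25 mitochondrial members the log2 fold changes had a Pearson correlation of 0.78 and a Spearman correlation of 0.73. These were 0.37 and 0.49 over all 37 members, which include Ppara and Ppargc1b at very low counts. Over all genes tested, low ones included, they were 0.33 and 0.45. Each is a description across genes that were measured in the same libraries. The test of the difference between the comparisons, the interaction of KD and APP/PS1, called 0 of 37 members beside 0% of all genes (edgeR), with 4 members at an unadjusted p under 0.05 (Acads, Cpt1a, Hadh and Hadhb) and 0 called by DESeq2 or limma voom. Acads, which fell in Control APP/PS1, was at 157 ± 17.7 CPM in KD WT and 149 ± 24.7 in KD APP/PS1 (SD, n = 5 each; log2 fold change -0.07, adjusted p = 0.734). Its interaction of 0.35 had an edgeR adjusted p of 0.544.

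The summed level of the compartments was compared next. The 25 mitochondrial members summed to 1194 ± 50.6 CPM in Control WT and 1275 ± 44.7 in Control APP/PS1, and to 1230 ± 129 in KD WT and 1463 ± 147 in KD APP/PS1 (SD). The 7 peroxisomal members summed to 747 ± 22.5, 725 ± 35.0, 745 ± 17.8 and 713 ± 60.1 CPM. The ratio of the 2 sums was not scaled to transcript length and so is compared only between groups. Changes between groups also went with transcript length, as given below, and the part of length in the ratio was not tested. The ratio was 1.60 ± 0.05 in Control WT, 1.76 ± 0.13 in Control APP/PS1, 1.65 ± 0.15 in KD WT and 2.08 ± 0.37 in KD APP/PS1. Its range was 1.54 to 1.67 in Control WT and 1.59 to 1.97 in Control APP/PS1, so that these groups overlapped. The highest ratio, 2.64, was that of KD APP/PS1 21, which had both the highest mitochondrial sum (1618 CPM) and the lowest peroxisomal sum (614 CPM). In KD WT the ratio was 1.54 to 1.56 in libraries 1, 2 and 3 and 1.71 and 1.88 in libraries 19 and 22. In library 10 the sums were 1568 and 688 CPM, beside 1209 to 1329 and 659 to 759 CPM in the other Control APP/PS1 libraries.

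Echs1 made up most of the mitochondrial difference in Controls. Without it, the other 24 mitochondrial members summed to 1108 ± 47.7 CPM in Control WT and 1114 ± 35.9 in Control APP/PS1. In KD mice they summed to 1145 ± 120 in WT and 1263 ± 108 in APP/PS1. On the scale that weighs each gene alike, the mean log2 CPM of mitochondrial minus peroxisomal members was 0.17 higher in Control APP/PS1 than in Control WT and 0.29 higher in KD APP/PS1 than in KD WT. KD exceeded Control by 0.06 in WT and by 0.18 in APP/PS1 on this scale. These differences changed with the run of library numbers. KD WT 1, 2 and 3 were at -1.39, -1.36 and -1.31 and KD WT 19 and 22 at -1.15 and -1.04, beside a Control WT mean of -1.31. KD APP/PS1 4 was at -1.19, beside a Control APP/PS1 mean of -1.14. Library 10 was at -0.84, beside -1.30 to -1.01 in the other Control APP/PS1 libraries and -1.19 to -0.69 in KD APP/PS1. These values are descriptions with no test.

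**Figure D3:**
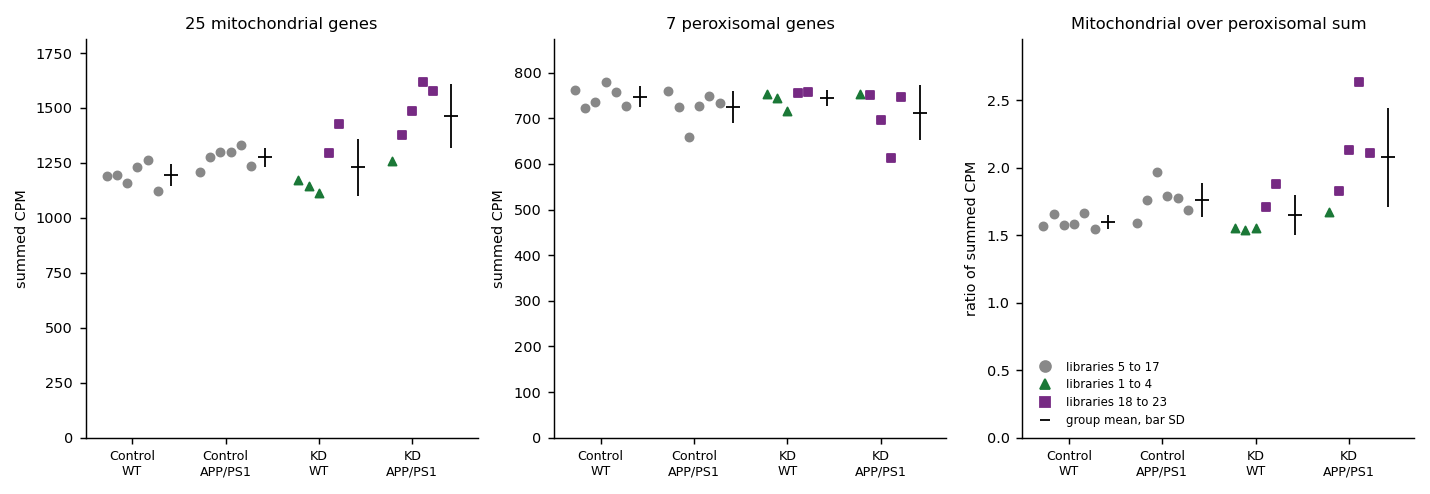
Summed CPM of the 25 mitochondrial members, summed CPM of the 7 peroxisomal members and their ratio in each of 22 libraries, with group mean and SD and symbols by run of library numbers. The peroxisomal sum lay between 614 and 779 CPM in every library, and the ratio was highest in KD APP/PS1 libraries 20, 21 and 23.

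The knockdown was compared with Control within each genotype. In WT mice, 0 of 37 members were called beside 0% of all genes (edgeR); 1 member, Acat1, had an unadjusted p under 0.05, and DESeq2 and limma voom called 0. Log2 fold changes had a median of 0.06 over the mitochondrial and -0.01 over the peroxisomal members. In APP/PS1 mice, 0 of 37 were called beside 0% of all genes (edgeR, the lowest adjusted p being 0.205). At an unadjusted p under 0.05 were 13 members, a count given without the share of all genes. DESeq2 called 3 members higher (Acads, Hadh and Hadhb), beside 2.39% of all genes higher and 0.698% lower, and limma voom called 0. The median log2 fold change was 0.25 over the mitochondrial and 0.02 over the peroxisomal members, against 0.01 over all genes. The correction for length and GC content given below took the first 2 to -0.03 and -0.01.

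One library decided the comparison in APP/PS1 mice. Without KD APP/PS1 4, the only library of its group from numbers 1 to 4, 6 members were higher beside 7.34% of all genes and 5 lower beside 9.07% (18700 genes tested, edgeR, 4 KD against 6 Control libraries). The higher ones were Acot13 (log2 fold change 0.57), Etfa (0.56), Hadh (0.49), Hadhb (0.46), Acads (0.42) and Echs1 (0.41). The lower ones were Cpt1a (-0.81), Ppard (-0.80), Acox3 (-0.60), Hadha (-0.54) and Acadsb (-0.38), the last a dehydrogenase of short branched chains. Acox3 was the 1 peroxisomal member among the 11. Choroid plexus markers were at 2.3 CPM in library 4 and at 282, 345, 89.4 and 493 in 18, 20, 21 and 23, beside at most 5.37 in Control APP/PS1. Astrocyte markers were at 669 CPM in library 4 and at 101, 356, 106 and 102 in 18, 20, 21 and 23. The part of other cells in this difference was not tested.

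Cpt1a was at 38.6 CPM in KD APP/PS1 4 and at 26.1, 21.6, 15.0 and 21.4 CPM in 18, 20, 21 and 23, against 28.5 to 45.6 CPM (median 35.9) in Control APP/PS1. Library 4 lay inside the Control range and the other 4 below it. Library 10, a Control, was at 18.7 CPM, also below that range. In KD WT, Cpt1a was at 43.0, 35.8 and 50.8 CPM in libraries 1, 2 and 3 and at 33.1 and 20.7 in 19 and 22.

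Hadha and Hadhb code for the 2 subunits of the mitochondrial trifunctional protein and lie head to head on chromosome 5, Hadha on the minus strand (chr5:30323302-30360187) and Hadhb on the plus strand (chr5:30359204-30389997). In KD APP/PS1, Hadha was at 124 CPM in library 4 and at 99.3, 71.5, 63.7 and 64.7 in 18, 20, 21 and 23. Hadhb was at 136 CPM in library 4 and at 160, 174, 199 and 205 in the others. The subunits thus moved in opposite directions from library 4 to the rest. Over libraries 18 to 23, Hadha was lower (edgeR adjusted p = 0.0228) and Hadhb higher (adjusted p = 0.0202) than in Control APP/PS1, where they ran from 95.0 to 137 and from 124 to 143 CPM. In library 10 they were at 64.5 and 198 CPM. Hadha also shares 31.05% of its exon bases with other genes, mostly Garem2.

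**Figure D4:**
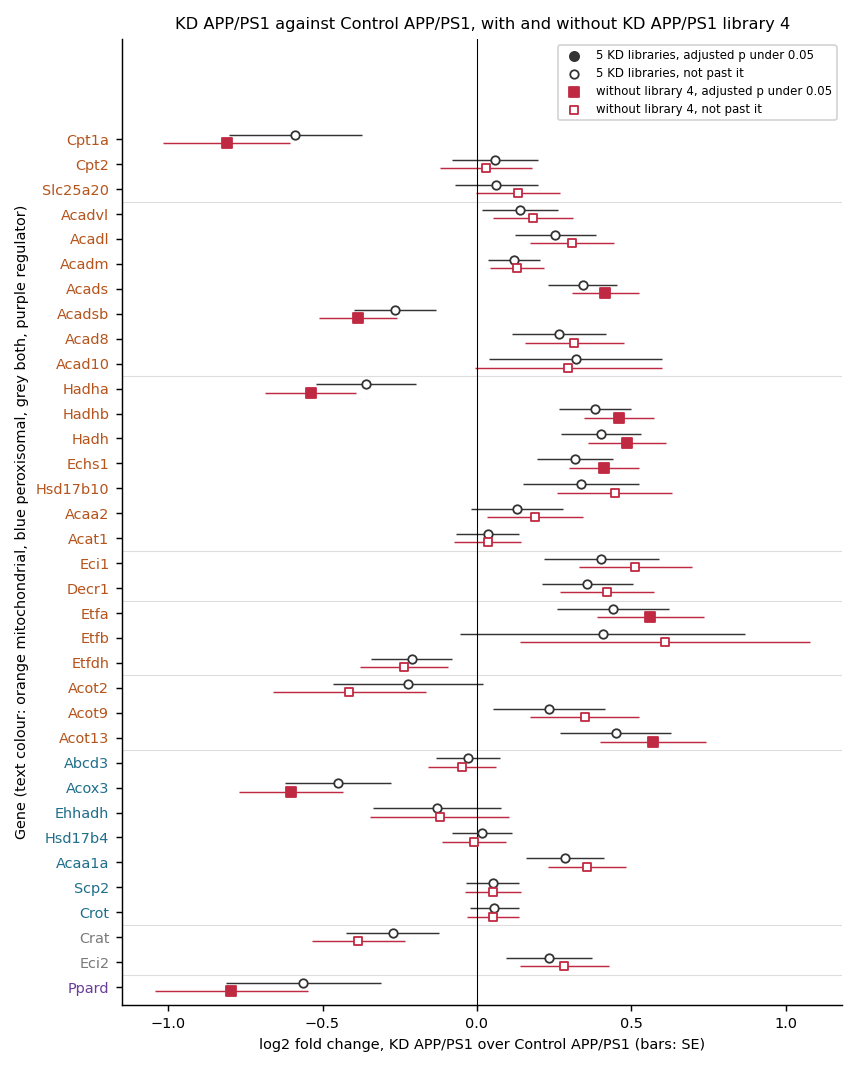
Log2 fold change of KD APP/PS1 over Control APP/PS1 with its standard error for 35 members, with all 5 KD libraries (black circles) and without library 4 (red squares), filled where the adjusted p was under 0.05. No black symbol is filled, whereas 11 red ones are, and Hadha and Hadhb lie on opposite sides of 0.

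Transcript length went with these differences. Within KD WT, where libraries 19 and 22 can be set against 1, 2 and 3 in the same genotype, 9 members were higher beside 6.33% of all genes and 1 was lower beside 5.41% (edgeR). The 9 were Hsd17b10, Acot9, Acaa2, Etfa, Hadh, Acaa1a, Decr1, Eci2 and Hadhb, and the 1 was Ppard. All 12 members with transcripts under 2000 bases had positive log2 fold changes here (median 0.62), and 8 of the 14 with transcripts of 3000 bases or more had negative ones (median -0.15). The Spearman correlation of length and log2 fold change across the 37 members was -0.70, and it was -0.65 for KD APP/PS1 against Control APP/PS1 without library 4. It was -0.18 for APP/PS1 against WT in Control mice and -0.50 in KD mice, where it was -0.09 and -0.30 over 18615 genes. These correlations are descriptions across genes that share libraries. Choroid plexus markers also differed within KD WT, at 802 and 447 CPM in libraries 19 and 22 and at 51.9, 10.5 and 11.1 in 1, 2 and 3. Neither length nor other cells was tested as a cause. Hadha, at 4038 bases, is about as long as Acox3 (4008), and Hadhb is at 2033 bases, while Cpt1a (6594) and Acadsb (6144) are the longest members.

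**Figure D5:**
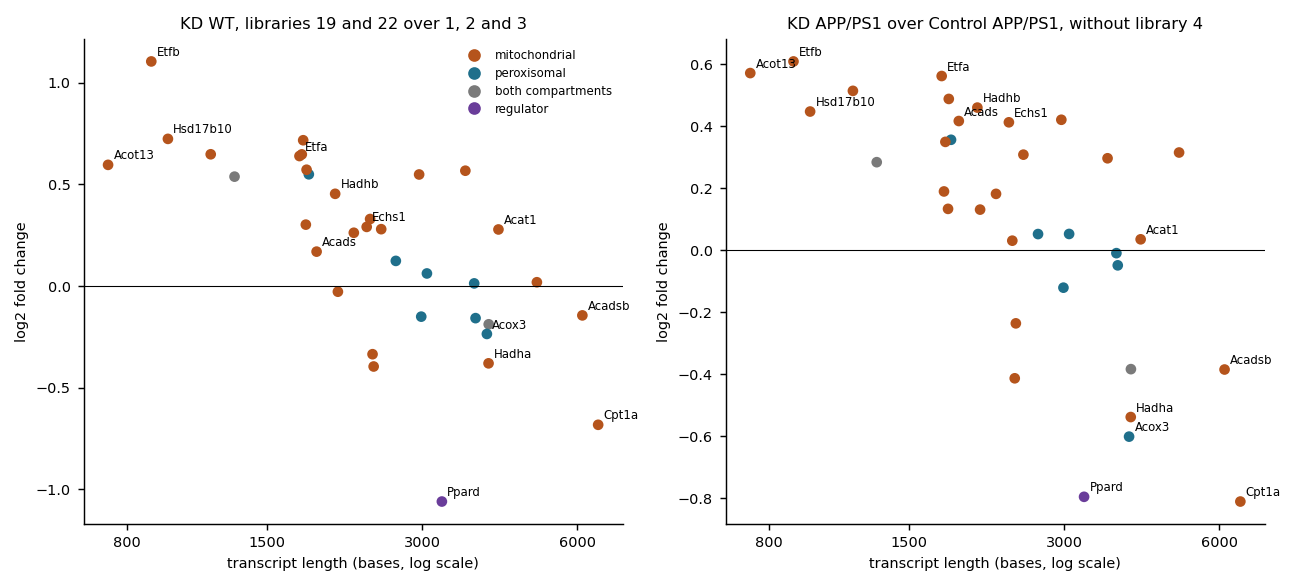
Log2 fold change of 35 members against transcript length on a log scale, for KD WT libraries 19 and 22 over 1, 2 and 3 (left) and for KD APP/PS1 over Control APP/PS1 without library 4 (right), coloured by compartment. Short transcripts such as Acot13 and Hsd17b10 lay above 0 and Cpt1a, Hadha and Ppard below 0 in both panels.

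With a correction of the counts for length and GC content, chosen after seeing the data, the calls were as follows. Between the Control groups, 4 members were higher beside 7.81% of all genes (Echs1, Acot9, Hadha and Hsd17b10) and 1 lower beside 5.49% (Acads, -0.50, edgeR adjusted p = 5.29e-05). Between the KD groups, 1 was higher beside 8.60% (Echs1, 1.09, adjusted p = 4.38e-08) and 3 lower beside 6.10% (Acat1, -0.37, adjusted p = 0.0224; Acads, -0.32, adjusted p = 0.0113; Acadm, -0.31, adjusted p = 0.0485). Hadh, Hsd17b10, Eci1, Acot9 and Acot13 were no longer called there. Between KD APP/PS1 and Control APP/PS1 without library 4, 0 members were higher beside 2.96% of all genes and 2 lower beside 4.32%, namely Ppard (-0.72, adjusted p = 0.0495) and Acox3 (-0.45, adjusted p = 0.0481). The corrected median log2 fold change over the mitochondrial and the peroxisomal members was 0.04 and -0.13 between the Control groups. It was 0.06 and -0.06 between the KD groups, and -0.03 and -0.01 between KD APP/PS1 and Control APP/PS1 with library 4 kept.

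Other genes of the pathway were counted from lists, to be read beside the 5.99% higher and 4.48% lower of all genes between the Control groups and the 9.77% and 6.41% between the KD groups. With the correction for length and GC content, all 18 calls of these lists in Controls held, and 24 of 31 did in KD mice. In the list of fatty acid uptake and activation, 6 of 16 genes tested were higher and 1 lower in Control APP/PS1 than in Control WT. Between the KD groups, 6 were higher and 2 lower (edgeR). The list also holds Acaca, which is no uptake or activation gene and was among the higher in both. The fatty acid binding protein genes Fabp3 (0.85 to 40.2 CPM on average, log2 fold change 5.55) and Fabp5 (5.63 to 164, 4.85) led in Controls, followed by the lipase gene Lpl (3.41) and by Acaca (3.03), whose product makes malonyl-CoA, the known inhibitor of Cpt1a. Cd36, a fatty acid receptor gene and the 1 gene lower, named after its value was seen, fell by 1.54 on the log2 scale. Each of these 5 changed in the same direction in KD mice, by 6.17, 6.10, 3.89, 2.41 and -1.76. These shifts were larger than any among the members with at least 1 CPM.

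Among other peroxisomal oxidation genes, 2 of 16 were higher between the Control groups, Abcd2, a transporter of very long chains (1.15, adjusted p = 0.000859), and Phyh, of phytanic acid oxidation (0.43). Between the KD groups, 3 were higher, among them Nudt19 (1.10) and Acot8 (0.72; 0.26, adjusted p = 0.323, with the correction), and 2 lower, among them Cat, catalase (-0.49). The correction ended 2 of the 3 higher calls. Of 25 other mitochondrial oxidation genes, 2 were higher in each comparison, and 1 of the 2 calls in KD mice ended with the correction. Acot1, a near copy of Acot2 among whose reads some may be divided, rose by 1.48 in Control and 1.51 in KD mice, while Acot2 itself was at -0.08 and 0.00. Of 18 peroxisome biogenesis genes, 1 was lower in Controls (Pxmp4, -0.62) and 0 were called in KD mice by edgeR (4 at an unadjusted p under 0.05; 1 each by DESeq2 and limma voom).

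Of 21 genes of mitochondrial import and the outer membrane, 3 were higher between the Control groups (Timm8b, 0.74; Hspd1, 0.54; Vdac2, 0.53) and 11 between the KD groups, led by Hspe1 (1.41), Timm8b (1.35), Tomm7 (1.21) and Tomm5 (1.10). With the correction these were 0.78, 1.37, 0.80 and 0.48 (edgeR adjusted p of at most 0.00624), and 9 of the 11 calls held. The list's median log2 fold change without it was 0.28 and 0.60, against 0.02 and 0.12 over the mitochondrial members. Among 9 PPAR target genes tested, the lipid droplet gene Plin2 (1.66 and 1.58) and Ucp2 (0.77 and 0.40) rose in both, and Hilpda (0.97) rose in KD mice. Of 19 genes of the PPAR and PGC-1 network, 0 were called in Controls by edgeR, DESeq2 or limma voom (0 at an unadjusted p under 0.05), and 2 were lower in KD mice (Gabpa, -0.57, and Prkaa1, -0.38), both of which lost their call with the correction (-0.34, adjusted p = 0.106, and -0.17, adjusted p = 0.241, edgeR). Of 7 ketone body genes, Oxct1, which lets cells use ketone bodies, rose by 0.58 in Controls, in contrast to Acat1 of the same pathway, and 0 were called in KD mice by edgeR, DESeq2 or limma voom (1 at an unadjusted p under 0.05). Between KD and Control, 0 of the 131 genes of these lists were called in either genotype by edgeR, with 4 at an unadjusted p under 0.05 in WT and 44 in APP/PS1, while DESeq2 called 0 and 11, beside its 2.39% higher and 0.698% lower of all genes in APP/PS1, and limma voom 0 in both.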

How the data were processed

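Bulk poly(A) RNA of 23 samples, 1 library each, was sequenced, and samples were grouped by their labels. The authors trimmed reads with Trim Galore 0.6.7, aligned them to mm39 with STAR and deposited counts, whole numbers of reads per gene, 18876 genes, not normalized. Their table of normalized values was not used.

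A minimum of 5 counts in 3 or more of 22 samples kept 18759 genes. After TMM scaling they went through edgeR 4.0.16 (quasi-likelihood test, the 4 groups fitted together, two-sided, R 4.3.3), with Benjamini-Hochberg adjustment over all genes tested. The members and lists were chosen with earlier results of these data known, so no list was tested. Counts at an unadjusted p under 0.05 have no share of all genes beside them and do not set members or lists apart from other genes. All members are named by role, and of each other list at most the 4 called genes with the largest change. The study calls the samples biological replicates. Library 10 was taken as the Control APP/PS1 sample that the study removed because it is the one missing from its heat map. Lengths, GC content and positions came from a GENCODE annotation of GRCm39 later than the one the authors counted on (18731 genes matched), promoter windows from RefSeq. Alternatives were DESeq2 1.42.0, limma voom 3.58.1, other scalings, filters, sample sets, a term for libraries 18 to 23, and a correction for length and GC content that was chosen after seeing the data. The steps were tested on simulated counts. Intervals and floors cover counting error only. No protein sequence was analysed here. 1 gene of the lists is not reported here.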

Additional observations from a re-analysis of the deposited data

Results flagged for a closer look

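In 7 of 148 sets of values (37 members in 4 groups), the highest or the lowest library stood apart from the rest of its group by more than Dixon's limit for 95%, and chance alone gives about 1 in 20. Acad10 was highest in Control APP/PS1 5, at 10.1 CPM where the next library had 5.46, and lowest in KD APP/PS1 21, at 5.10 CPM. Cpt2 was also lowest in KD APP/PS1 21, at 14.01 CPM where the others ran from 18.2 to 19.7. Acad8, isobutyryl-CoA dehydrogenase of valine breakdown, was highest in KD APP/PS1 23, at 33.0 CPM. Abcd3 was highest in Control WT 9, at 101 CPM. Ppara was highest in Control WT 15, at 0.384 CPM where the other 5 libraries had 0, and in Control APP/PS1 5, at 0.128 CPM, which are few counts. No explanation was tested.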

How the results depend on the processing

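Echs1 kept its direction and its call between APP/PS1 and WT under every alternative in KD mice, and in Control mice under every one but a required fold above 1 on the log2 scale; Acads in Controls did the same. Counts of members moved more. Between the Control groups, 1 member was higher and 2 lower. The numbers were 0 and 0 with an absolute log2 fold change above 1, 4 and 1 with library 10 kept, 4 and 1 after correction for length and GC, 6 and 5 with limma voom, 2 and 1 without the 4 choroid-rich WT libraries (Control WT 12 and 15, KD WT 19 and 22), and 6 higher with only the compared groups or with a term for libraries 18 to 23. DESeq2 and a filter of 10 counts in every sample gave 4 lower. Leaving out 1 replicate gave 1 to 3 higher and 1 to 2 lower, with 2 or 3 higher without Control APP/PS1 5, KD APP/PS1 4 or 21 or KD WT 3 or 22. Between the KD groups, 6 were higher and 1 lower. The numbers were 1 and 0 with the fold limit, 1 and 3 with the length and GC correction, 1 and 0 with only the compared groups, 4 and 1 with library 10 kept, which ended the calls of Eci1 (edgeR adjusted p = 0.0749) and Acot9 (0.0545), 10 and 3 without those 4 libraries, 2 higher with the term for libraries 18 to 23 and 1 higher within them. DESeq2 and the stricter filter gave 4 lower, and limma voom 2. Leaving out 1 replicate gave 2 to 9 higher and 1 to 3 lower. It was 2 or 3 higher without KD APP/PS1 20, 21 or 23 or KD WT 1, 2 or 3, each of which ended the calls of Hadh, Eci1 and Acot9 (adjusted p up to 0.0745, 0.108 and 0.102, edgeR), and KD APP/PS1 21 and KD WT 2 and 3 also that of Hsd17b10 (up to 0.0583). It was 3 lower without KD APP/PS1 4 or KD WT 22. Calls over all genes moved too. Between the Control groups they were 1124 higher and 841 lower, and 2079 and 1342 with limma voom, 1974 and 1267 with only the compared groups, 1580 and 1155 with the term for libraries 18 to 23, 1244 and 885 with library 10 kept and 971 and 574 without the 4 libraries. Between the KD groups they were 1832 and 1202, and 2834 and 2301 without the 4 libraries, 738 and 303 with only the compared groups and 1121 and 652 with the term. Between KD APP/PS1 and Control APP/PS1, DESeq2 gave 3 higher, leaving out 1 replicate gave 0 to 6 higher and 0 to 5 lower (6 and 5 without KD APP/PS1 4, otherwise 0), and the length and GC correction without library 4 gave 2 lower. In that comparison the term for libraries 18 to 23, which leaves library 4 as the KD library outside them, reversed Hadha (0.028), Hadh (-0.042), Echs1 (-0.013), Etfa (-0.13), Acot13 (-0.10) and Ppard (0.18), and the length and GC correction reversed Acot13 (-0.088, and -0.13 without library 4). The cause was not tested. No count of members called moved for the knockdown in WT or for the interaction. No paired analysis was possible because the groups share no replicate number. Depth limited Ppara and Ppargc1b.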
